A study of Mus musculus with 35 samples.

Results

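Basal cells of the mouse mammary gland that carried much CD49f on their surface were compared with basal cells that carried little of it. The samples were chosen by their titles: 5 of the 35 samples of the series were basal CD49f-high (CD24+Low Sca1- CD49fHigh) and 6 were basal CD49f-low (CD24+Low Sca1- CD49fLow). Of the CD49f-high samples 3 came from nulliparous and 2 from parous mice, and of the CD49f-low samples 3 came from each. Parous mice had been bred at an age of 42 days, with 21 days of lactation and 40 days of involution allotted after the pregnancy, and the nulliparous mice were virgins of the same age. No genetic change or drug is named for any group, and the strain is not given in the sources used here. Cells from the inguinal (number 4) mammary glands of 5 mice were pooled for every sample, and replicates are called pools below. A CD49f-high sample was made from 2000 cells and a CD49f-low sample from 10000 cells, so the sorted fraction and the cell number cannot be told apart. The labels record that 1 CD49f-high pool, by its number the first parous one, failed to hybridize and was left out by the submitters.

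The basal layer of the mammary duct lies between the milk-secreting luminal cells and the stroma. Most of its cells are myoepithelial: they hold smooth muscle actin and myosin, carry the oxytocin receptor and squeeze milk out of the gland. CD49f is integrin alpha 6, encoded by Itga6, which pairs with integrin beta 1 or beta 4 to hold basal cells on the laminin of the basement membrane. High surface CD49f together with CD24 is widely used to enrich basal cells that can regrow a gland after transplantation, and Lgr5, Procr and Tspan8 are genes used to mark basal subsets with that capacity.

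The values are log2 expression per probe set on Affymetrix arrays, where a difference of 1 log2 unit is a 2-fold difference. Pools of 1 group correlated across genes at 0.963 to 0.978 for CD49f-high and at 0.977 to 0.988 for CD49f-low cells. The 2 parous CD49f-high samples stood apart from the other 9 basal samples: on the first principal component, which held 26.6% of their variance, they lay at -37.0 and -36.1, and the others between -7.80 and 30.0. They correlated with the nulliparous CD49f-high samples at 0.950 to 0.963, lower than with the parous CD49f-low samples (0.965 to 0.971). The root mean square SD within groups was 0.347 and 0.308 in parous and nulliparous CD49f-high cells, 0.211 and 0.254 in CD49f-low cells, and 0.195 to 0.233 in the other 8 groups. Results below are therefore given for each history as well as for their mean.

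Both fractions carried the basal genes, and the gene of the sorted protein did not separate them. Itga6 read 10.72, 10.78 and 10.85 in nulliparous CD49f-high pools 1, 2 and 3 and 10.65 and 10.76 in parous CD49f-high pools 2 and 3. The CD49f-low values were 10.32, 10.78 and 10.81 in nulliparous and 10.88, 10.89 and 10.76 in parous pools 1, 2 and 3. The groups overlapped, and the mean difference over both histories was 0.0036 (SE 0.13, adjusted p = 0.992), so a difference in Itga6 RNA between the fractions was not detectable. Itgb1, the beta 1 partner, had a difference of -0.089 (SE 0.065, adjusted p = 0.493). Cd24a encodes CD24, which was also used in the sort, and had a difference of -0.21 (SE 0.20, adjusted p = 0.612).

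Keratins 5 and 14, the intermediate filaments of basal cells, were high in both fractions. Krt5 lay between 11.46 and 11.87 in CD49f-high and between 11.28 and 11.71 in CD49f-low samples, against 6.10 to 8.04 in luminal Sca1-negative cells. Krt14 lay between 10.91 and 11.15 against 11.08 and 11.22, and the basal transcription factor gene Trp63 between 9.34 and 10.35 against 9.35 and 10.10. The myoepithelial genes Acta2 (median 11.77 against 11.66) and Myh11 (11.41 against 11.26) were also at like levels. None of these 5 genes passed the test, with mean differences of -0.15 to 0.31. Of 15 measured basal keratin and hemidesmosome genes 0 passed limma's test for the mean of histories (1 at an unadjusted p under 0.05), with a median difference of 0.066 beside 0.029 over all genes.

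Averaged over history, more genes were called lower than higher in CD49f-high cells. Lum, Tlcd4, Tspan8, Tph1 and Fv1 had differences of -2.03 to -1.64 log2 units, Lgr5 fell by 0.85, and Cdca7 was 1.03 higher. In all 705 of 19937 genes (3.54%) passed limma's test at an adjusted p under 0.05, 210 of them higher (1.05%) and 495 lower (2.48%) in CD49f-high cells. The 5 CD49f-high values lay wholly above or below the 6 CD49f-low values in 185 genes (0.928%), 95 of which also passed the test, 31 higher and 64 lower. The count of called genes rested on the spread lent by the other subpopulations: it was 138 when each subpopulation had its own weight and 28 when the 11 basal samples were fitted alone. It was 391 without parous CD49f-low pool 2, 438 without nulliparous CD49f-low pool 2, and 357 without nulliparous pool 3 in both fractions. The fit behind these counts had no term for the pool. With the pool number as a fixed block in 5 pairs of basal samples the count was 0 (2372 at an unadjusted p under 0.05).

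Lum encodes lumican, a proteoglycan that spaces collagen fibrils, and its mean difference was larger than that of any other gene named here. It read 4.62, 3.73 and 3.77 in nulliparous CD49f-high pools 1, 2 and 3, against 6.21, 7.12 and 6.70 in the nulliparous CD49f-low pools. In parous mice it read 3.59 and 3.50 in CD49f-high pools 2 and 3, against 5.57, 5.09 and 4.26 in CD49f-low pools 1, 2 and 3. Within each history every CD49f-high value lay below every CD49f-low value. The mean difference was -2.03 (SE 0.30, adjusted p = 3.2e-04), and it also passed with the basal samples alone (adjusted p = 0.0237). Stromal cells read 11.14 to 11.26 for Lum and luminal Sca1-negative cells 3.40 to 4.09, so the CD49f-high values (3.50 to 4.62) lay far nearer to the luminal than to the stromal level.

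Tspan8, a tetraspanin of the cell membrane, read 9.02, 8.19 and 8.63 in nulliparous CD49f-high pools and 6.33 and 8.28 in parous ones. The CD49f-low pools read 9.49, 9.40 and 9.34 in nulliparous and 10.37, 9.98 and 9.97 in parous mice. All 5 CD49f-high values were below all 6 CD49f-low values, with a mean difference of -1.80 (SE 0.36, adjusted p = 0.00542). Tph1 encodes tryptophan hydroxylase, the first enzyme of serotonin synthesis, and serotonin acts within the gland on milk secretion. Its CD49f-high values were 4.84, 4.50 and 4.94 in nulliparous and 4.82 and 4.66 in parous pools, and its CD49f-low values 6.71, 5.73 and 5.69, and 6.65, 7.18 and 6.46. The Tph1 difference was -1.65 (SE 0.24, adjusted p = 2.37e-04). Luminal Sca1-positive cells read 9.84 to 11.07 for Tph1 and luminal Sca1-negative cells 7.58 to 9.62, above both basal fractions.

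Lgr5, a receptor for the R-spondin proteins that strengthen Wnt signals, differed in parous mice. Nulliparous CD49f-high pools read 9.02, 8.99 and 8.35 and nulliparous CD49f-low pools 9.01, 8.66 and 9.00, which overlap. Parous CD49f-high pools read 7.22 and 7.18, below every other basal sample, and parous CD49f-low pools read 8.89, 8.68 and 8.84. The difference was -0.11 (SE 0.16, adjusted p = 0.894) in nulliparous and -1.60 (SE 0.18, adjusted p = 2.37e-06) in parous mice, and the test of one against the other gave -1.50 (SE 0.24, adjusted p = 8.88e-04). Luminal cells read 4.86 to 5.72 for Lgr5, so the lower parous values were still above theirs.

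Cdca7, a partner of the chromatin remodeller Hells that is switched on by Myc and E2F factors, was the largest rise among the genes named by the rule. It read 6.62, 6.94 and 6.24 in nulliparous and 7.81 and 6.66 in parous CD49f-high pools, against 6.20, 5.91 and 6.17, and 5.86, 6.10 and 5.09 in CD49f-low pools. The groups did not overlap, and the mean difference was 1.03 (SE 0.19, adjusted p = 0.00288), though the basal samples alone did not call it (adjusted p = 0.146). Luminal and stromal values of Cdca7 lay between 4.97 and 6.10, lower than all 5 CD49f-high values.

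**Figure D1:**
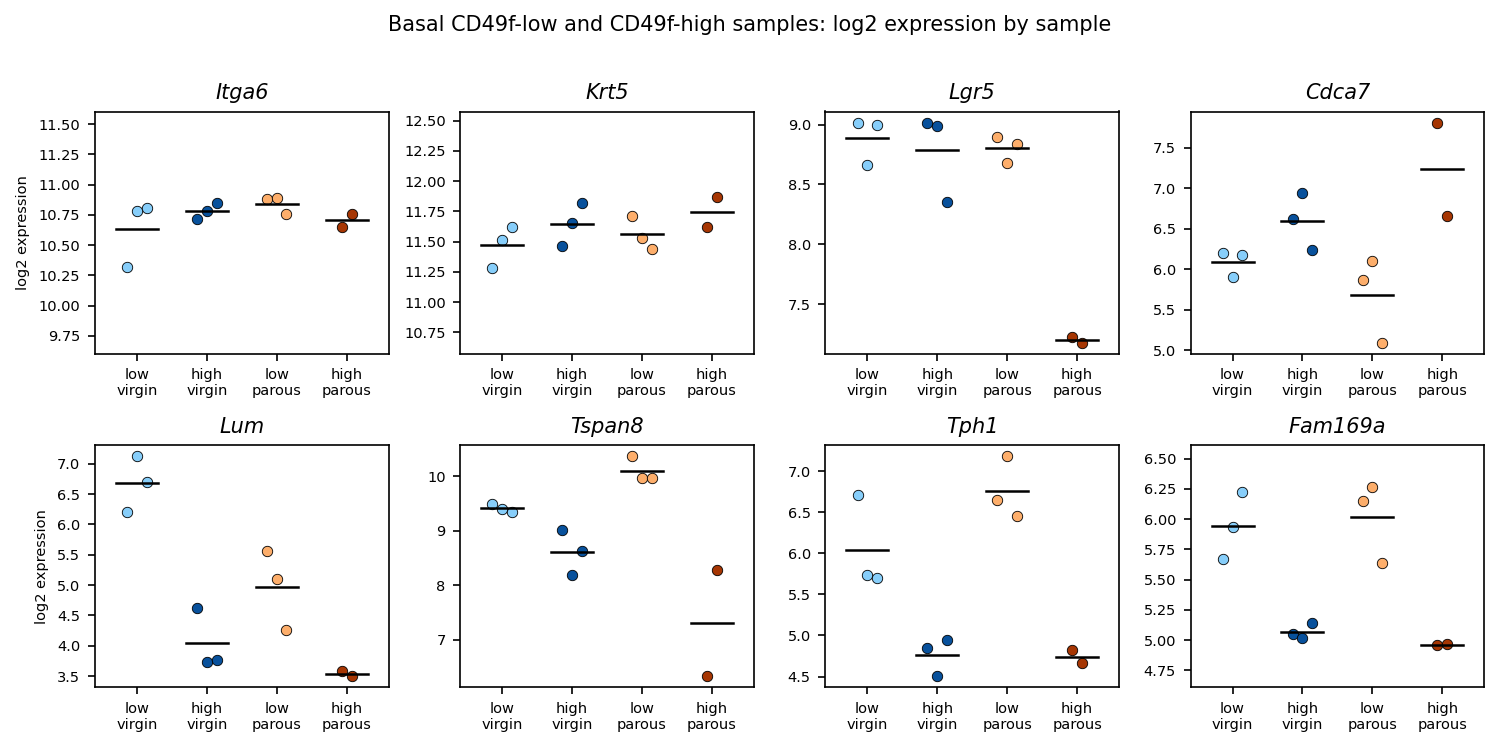
Log2 expression (vertical axes, one per gene) of 8 genes in the 11 basal samples. Each point is a pool, coloured by group, and each bar is the mean of the group. Itga6 and Krt5 overlap between fractions, Lgr5 is low in the 2 parous CD49f-high samples only, and Lum, Tspan8, Tph1 and Fam169a are lower in CD49f-high cells within each history.

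The stretches before the start sites of 4 called genes are shown because they differ in the letters they hold. Of 7 genes looked up (Itga6, Lgr5, Lum, Cdca7, Tspan8, Tph1 and Mmp3, a matrix protease described below) 4 matched the promoter sequences of RefSeq, build GRCm38.p6. Each line gives the 250 bases before the start, 5′ to 3′ in the direction of the gene, with motif matches in capitals. The windows are Cdca7 at chr2:72475969-72476218 on the + strand, Tspan8 at chr10:115817034-115817283 (+), Tph1 at chr7:46672538-46672787 (-) for its upstream start and chr7:46667378-46667627 (-) for its other start, and Mmp3 at chr9:7445572-7445821 (+).
Cdca7: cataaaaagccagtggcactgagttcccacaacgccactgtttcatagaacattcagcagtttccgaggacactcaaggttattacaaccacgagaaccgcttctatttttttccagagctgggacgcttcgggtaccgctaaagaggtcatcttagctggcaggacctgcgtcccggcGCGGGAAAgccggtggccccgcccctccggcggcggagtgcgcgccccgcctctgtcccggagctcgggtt
Tspan8: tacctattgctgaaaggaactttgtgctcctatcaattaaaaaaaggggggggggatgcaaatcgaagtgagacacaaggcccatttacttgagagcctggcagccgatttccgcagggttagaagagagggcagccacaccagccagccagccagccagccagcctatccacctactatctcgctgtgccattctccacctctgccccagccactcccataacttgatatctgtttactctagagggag
Tph1, upstream start: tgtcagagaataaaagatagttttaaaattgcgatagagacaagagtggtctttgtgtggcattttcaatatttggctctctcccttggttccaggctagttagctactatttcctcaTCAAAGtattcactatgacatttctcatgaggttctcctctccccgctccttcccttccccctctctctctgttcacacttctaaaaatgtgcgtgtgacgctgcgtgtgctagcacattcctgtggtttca
Tph1, other start: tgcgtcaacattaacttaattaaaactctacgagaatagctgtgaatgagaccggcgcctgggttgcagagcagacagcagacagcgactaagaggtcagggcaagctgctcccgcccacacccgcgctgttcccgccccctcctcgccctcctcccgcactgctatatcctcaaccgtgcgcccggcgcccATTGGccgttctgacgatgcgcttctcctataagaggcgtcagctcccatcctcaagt
Mmp3: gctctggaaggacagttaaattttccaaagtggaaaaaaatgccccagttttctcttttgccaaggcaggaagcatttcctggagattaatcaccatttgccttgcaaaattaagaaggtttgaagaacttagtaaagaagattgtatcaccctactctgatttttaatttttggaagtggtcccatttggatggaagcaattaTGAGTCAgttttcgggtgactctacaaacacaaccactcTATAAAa
Both strands were searched for the TATA box written as TATAAA, the box known as CCAAT, the AP-1 site written as TGANTCA, the TCF/LEF core written as CTTTGA, and an E2F site written as TTTGGCGC or as TTTCCCGC or as TTTCGCGC. No matches overlapped each other in these windows. The Cdca7 window held 1 E2F match, 71 bases before the start, a motif found in 1.53% of 32841 promoter windows of the same length. The Mmp3 window held an AP-1 match at 46 bases (6.75% of windows) and a TATAAA at 7 bases (12.4%). The Tph1 windows held a TCF/LEF match at 132 bases before the upstream start (13.8%) and a CCAAT at 58 bases before the other start (33.9%). The Tspan8 window held no match to these letters. A match is a description of the sequence and no measurement of a factor bound there.

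Other called genes also separated all 5 CD49f-high from all 6 CD49f-low samples. Among the rises, Ndufaf1, an assembly factor of mitochondrial complex I, was 0.74 higher (SE 0.17), Nqo1, a quinone reductase and target of Nrf2, 0.74 higher (SE 0.18), and Ajuba, a LIM protein of cell junctions, 0.65 higher (SE 0.15). Rpp30, a subunit of ribonuclease P, was 0.64 higher (SE 0.13), and Zmat5, a protein of the minor spliceosome, 0.44 higher (SE 0.09). Ssna1, Fam216a, Abhd18, Gjd4, Myo1f and Fam160a2 completed the named rises, at 0.39 to 0.72, with adjusted p values of 0.00138 to 0.0498. The calls of Abhd18, Myo1f and Fam160a2 were lost in 5, 6 and 8 of the 11 fits that left out a single pool, and those of Nqo1 and Gjd4 in 1 fit each.

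The falls were larger. Tlcd4 fell by 1.94 (SE 0.28, adjusted p = 2.27e-04), with CD49f-high values from 5.15 to 6.84 and CD49f-low values from 6.90 to 8.55, and it read 10.88 to 11.80 in luminal Sca1-positive cells. Fv1, a factor that restricts murine leukaemia viruses, fell by 1.64 (SE 0.28), and Mrs2, a mitochondrial magnesium channel, -1.19 (SE 0.21). Naaladl2, Wdr53, Fam169a, Tent5c and Irgm1 had differences of -1.31 to -0.91. Fam169a had the lowest adjusted p of these (1.66e-04), with 4.96 to 5.14 in CD49f-high and 5.64 to 6.26 in CD49f-low samples, with no overlap in either history. Fli1, an ETS transcription factor of endothelial and blood cells, fell by 0.98 (SE 0.14), with 5.81 to 6.36 against 6.60 to 7.33. Irgm1, an interferon-induced GTPase, lost its call in 7 of the 11 fits that left out a single pool.

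The difference was not the same in the 2 histories. In nulliparous mice (3 against 3 samples) 23 genes passed the test (0.115%), 4 higher and 19 lower, and in parous mice (2 against 3) 1431 passed (7.18%), 555 higher (2.78%) and 876 lower (4.39%). Of the 705 genes called for the mean, 556 were also called in parous and 15 in nulliparous mice, and 620 had the larger difference in parous mice. A direct test of the difference between histories called 453 genes (2.27%), 197 higher and 256 lower in the parous than in the nulliparous comparison. The nulliparous count ranged from 0 (1609 genes at an unadjusted p under 0.05), without CD49f-low pool 2, to 189, without CD49f-high pool 1. In nulliparous mice the deviations of same-numbered pools of both fractions from their group means correlated at 0.34, 0.14 and 0.26. Pools of different numbers were not compared in this way, so pairing by number was only assumed. With the pool number as a fixed block in 5 pairs of basal samples limma called 0 genes in nulliparous mice (1235 at an unadjusted p under 0.05).

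The 2 histories share no sample, so their differences can be set side by side. Across 19937 genes the difference in nulliparous mice correlated with that in parous mice at 0.0571 (Pearson's r, a description over genes, which are not independent). Of the 555 genes called higher in parous mice 239 (43.1%) were above 0 in nulliparous mice, where 51.4% of all genes were. Of the 876 genes called lower in parous mice 504 (57.5%) were below 0 in nulliparous mice, where 48.6% of all genes were. The share with the same direction was thus above that of all genes for the lower calls and below it for the higher calls. Genes called in both histories numbered 5: Fam169a, Fli1, Naaladl2 and Pi15 were lower in both, and Prmt9 went opposite ways.

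**Figure D2:**
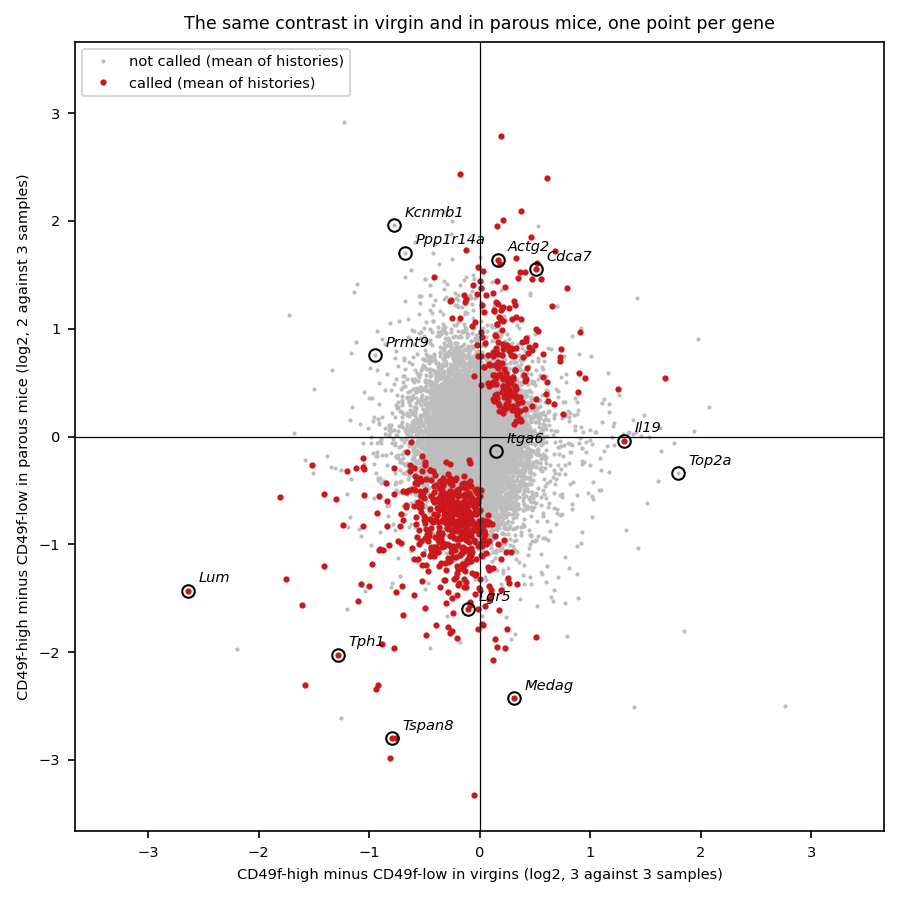
Difference between CD49f-high and CD49f-low cells in log2 units, in virgin (horizontal axis) and parous mice (vertical axis), with 1 point for each of 19937 genes. The 705 genes called for the mean of histories are red, and named genes are circled. The cloud of called genes is stretched along the parous axis, with Lum, Tph1 and Tspan8 low on both axes and Medag and Lgr5 low on the parous axis only.

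Pi15, Prmt9 and the other genes of this and the next 4 paragraphs that are outside the naming rule were chosen after their values were seen. Prmt9 encodes an arginine methyltransferase of splicing factors. Its nulliparous CD49f-high pools read 6.34, 6.78 and 6.44 against 7.55, 7.58 and 7.26 in CD49f-low pools, and its parous CD49f-high pools read 7.42 and 7.83 against 6.67, 7.06 and 6.88. The fractions were thus separated in both histories, in opposite directions (-0.95 and 0.75), and the difference between them was 1.70 (SE 0.28, adjusted p = 0.00109). Pi15, a secreted protein of the CAP family, differed by -0.83 (SE 0.16, adjusted p = 0.0337) in nulliparous and by -0.60 (SE 0.18, adjusted p = 0.0415) in parous mice.

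In nulliparous mice 19 of the 23 called genes were lower in CD49f-high cells. Lum fell by 2.64 (SE 0.41, adjusted p = 0.00931), Crabp1, a carrier of retinoic acid, fell by 1.80 (SE 0.32, adjusted p = 0.0264), and Pdgfra, the platelet-derived growth factor receptor of fibroblasts, fell by 1.41 (SE 0.28, adjusted p = 0.0376). Crabp1 read 6.74, 6.40 and 6.52 in CD49f-high and 8.73, 8.45 and 7.89 in CD49f-low pools, and 8.66 to 9.97 in stromal cells. Nupr1, a stress-induced chromatin protein, fell by 1.05 (SE 0.17, adjusted p = 0.00932) and was the one gene still called when each subpopulation had its own weight. The chemokine gene Cxcl10 (-1.06) and the calcium channel gene Trpv6 (-1.06) were lower as well, and Il19, a cytokine of the interleukin 10 family, was higher by 1.30 (SE 0.24, adjusted p = 0.0302). Il19 read 5.92, 6.57 and 7.55 in nulliparous CD49f-high pools, and no other basal sample exceeded 5.64.

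In parous mice, 4 of 16 myoepithelial contractile genes were called higher in CD49f-high cells (25.0%, beside 2.78% of all genes) and 12 were not called, Acta2 (0.34, adjusted p = 0.332) and Myh11 (0.43, adjusted p = 0.254) among them. Actg2, smooth muscle gamma actin, read 10.50 and 9.89 in parous CD49f-high pools 2 and 3 against 8.89, 8.43 and 8.35 in CD49f-low pools. Its nulliparous CD49f-high pools read 9.54, 9.43 and 9.32, within the range of the nulliparous CD49f-low pools (9.25, 9.62 and 8.92). The parous difference was 1.64 (SE 0.23, adjusted p = 4.73e-05) and the nulliparous one 0.16 (SE 0.20, adjusted p = 0.874). The 4 called were Actg2, Oxtr (the oxytocin receptor, 0.91), Smtn (smoothelin, 0.72) and Synm (synemin, 0.86). When each subpopulation had its own weight, limma still called Actg2 and Synm in parous mice (adjusted p = 0.00124 and 0.0323). Oxtr and Smtn were then not called (adjusted p = 0.093 and 0.104). With the basal samples alone Actg2 was called (adjusted p = 0.018), and Oxtr, Smtn and Synm were not (0.205, 0.172 and 0.141). The list of 16 had a median difference of 0.42 in parous and -0.11 in nulliparous mice, beside 0.051 and 0.0058 over all genes, and 14 and 5 of the 16 were above 0.

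Ppp1r14a and Kcnmb1, regulators of myosin phosphatase and of the BK potassium channel in smooth muscle, were also called higher in parous mice. Ppp1r14a read 9.41 and 9.89 in parous CD49f-high pools, 7.87 to 8.11 in parous CD49f-low pools, 6.55 to 7.28 in nulliparous CD49f-high pools and 7.26 to 7.98 in nulliparous CD49f-low pools. Its difference between histories was 2.38 (SE 0.39, adjusted p = 0.00116), and it was called with the basal samples alone too (adjusted p = 0.0402). Kcnmb1 was 1.96 higher in parous mice (SE 0.34, adjusted p = 5.82e-04) and -0.78 in nulliparous mice (SE 0.30, adjusted p = 0.394), with a difference between histories of 2.74 (SE 0.45, adjusted p = 0.00122). The collagen-binding integrin gene Itga1 (1.07) and the elastin gene Eln (1.15) were also called higher in parous mice, and each differed between histories (adjusted p = 0.0261 and 0.0379). Of 9 pericyte and vascular smooth muscle markers 2 were called higher in parous mice (22.2%, beside 2.78% of all genes), Mcam (0.61) and Higd1b (0.91), while Pdgfrb (-0.030) and Rgs5 (-0.53) were not called. The mean level of that list was 6.09 ± 0.13 (SD, n = 2) in parous CD49f-high and 5.98 ± 0.091 (SD, n = 3) in parous CD49f-low samples, whose ranges overlap, and 7.28 to 7.68 in stromal cells, and its part in the contractile gene result was not tested.

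Other genes were lower in parous CD49f-high cells. Medag, a regulator of fat cell formation, read 5.48 and 5.56 there against 7.59, 8.28 and 7.96 in CD49f-low pools, and 5.61 to 6.47 in the 6 nulliparous samples. Its difference was -2.43 in parous (SE 0.21, adjusted p = 5.22e-08) and 0.31 in nulliparous mice (SE 0.19, adjusted p = 0.647). In Medag it was the parous CD49f-low pools that stood away from the other 8 samples, whereas in Lgr5 it was the parous CD49f-high pools. Vcam1, an adhesion molecule, fell by 1.63 (SE 0.23), the AP-1 subunit gene Fosl1 -1.37 (SE 0.23), Cd44, the hyaluronan receptor, -0.99 (SE 0.24) and Gch1, the first enzyme of tetrahydrobiopterin synthesis, -1.86 (SE 0.28). All 4 of these differed between histories, with adjusted p values of 9.7e-04 to 0.016.

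**Figure D3:**
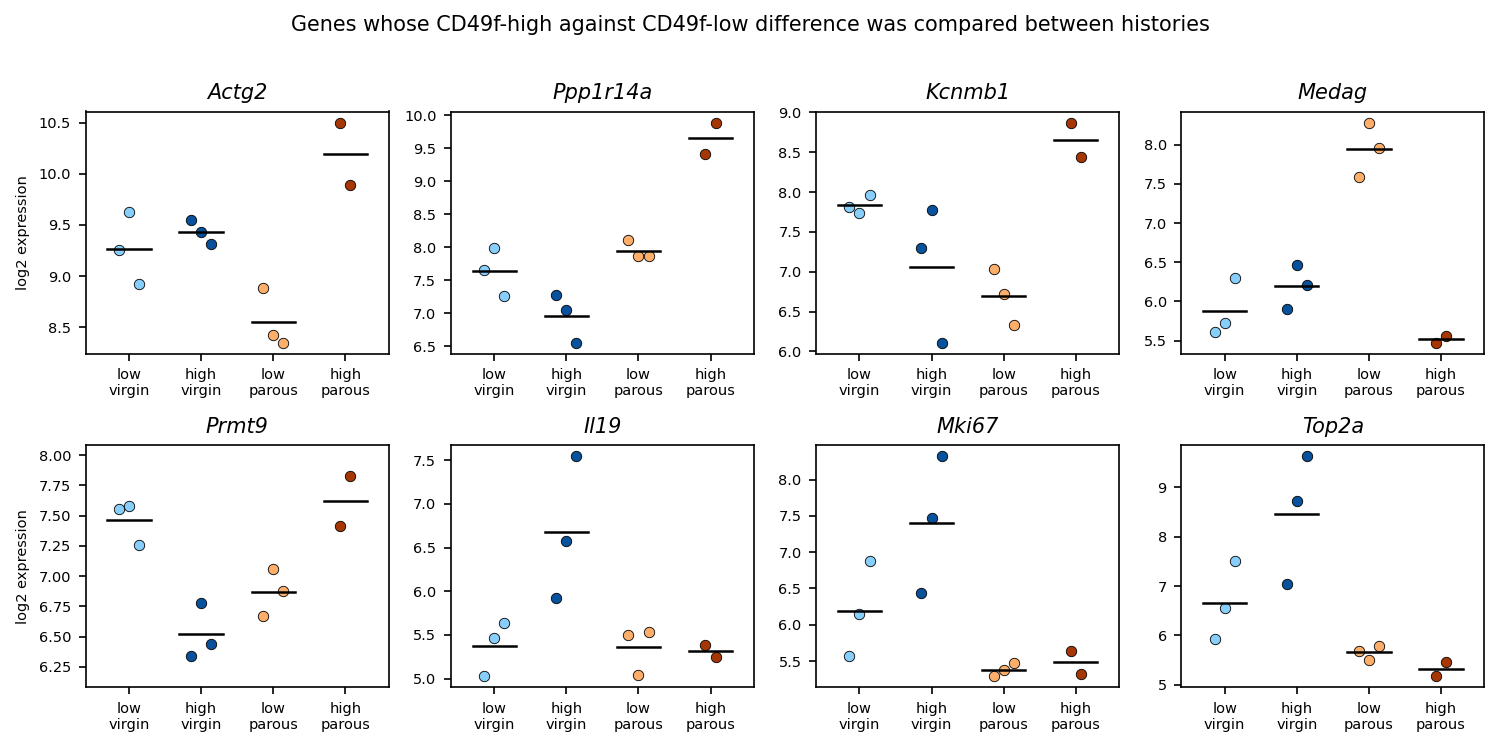
Log2 expression (vertical axes, one per gene) of 8 genes in the 11 basal samples, by fraction and history. Points are pools and bars are group means. Actg2, Ppp1r14a and Kcnmb1 are high in the 2 parous CD49f-high samples, Medag is high in parous CD49f-low samples, Prmt9 reverses between histories, and Il19 is high in nulliparous CD49f-high samples. Mki67 and Top2a have a higher mean in nulliparous CD49f-high than in nulliparous CD49f-low samples but were not called there. The Top2a values of these 2 groups overlap.

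Matrix proteases and their inhibitors were lower in CD49f-high cells where they were called. Of 19 measured members 5 passed the test for the mean of histories, all lower (26.3%, beside 2.48% of all genes called lower), and the list's median was -0.31 beside 0.029 over all genes. In parous mice 5 were called lower (26.3%, beside 4.39% of all genes), with a median of -0.14. In nulliparous mice limma called 0 (4 at an unadjusted p under 0.05), with a median of -0.19. Plat and Adamts5 differed by 0.0059 and -0.019 in nulliparous and by -1.32 and -1.79 in parous mice. Mmp3, stromelysin, a protease that cuts matrix and basement membrane proteins, read 6.11, 4.64 and 4.75 in nulliparous and 4.80 and 4.73 in parous CD49f-high pools. Its CD49f-low pools read 6.17, 6.39 and 5.28 in nulliparous and 6.76, 6.70 and 6.73 in parous mice, and the mean difference was -1.37 (SE 0.34, adjusted p = 0.0214). Nulliparous CD49f-high pool 1 was above nulliparous CD49f-low pool 3 and below the other 5 CD49f-low pools, and the other 4 CD49f-high pools were below all 6. Adamts5, which cuts aggrecan and versican, fell by 0.90 (SE 0.21), Adamts1, chosen after its values were seen, -0.53 (SE 0.13), Timp1, an inhibitor of the matrix metalloproteinases, -0.71 (SE 0.20) and Plat, tissue plasminogen activator, -0.66 (SE 0.18). The list's count of called genes was 2 without parous CD49f-high pool 3 or nulliparous CD49f-high pool 3, 6 without nulliparous CD49f-high pool 1 and 1 without nulliparous pool 3 in both fractions, and Timp1 and Plat lost their calls in 8 and 7 of the 11 fits without a single pool.

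Adamts5 differed between histories as well. Parous CD49f-low pools read 9.40, 9.59 and 8.98, and all 8 other basal samples lay between 7.06 and 8.26. The test of parous against nulliparous gave -1.77 (SE 0.42, adjusted p = 0.0207). Laminin chains went opposite ways: Lama1, a basement membrane chain, was 0.51 higher (SE 0.12, adjusted p = 0.0134) and Lama2, the chain of muscle and stromal laminin, -0.64 (SE 0.15, adjusted p = 0.0172). The rise of Lama1 came with 8.58 and 8.88 in parous CD49f-high against 7.59 to 7.83 in parous CD49f-low pools, and the nulliparous values overlapped. Of 21 collagen genes 0 were called by limma (2 at an unadjusted p under 0.05), and of 11 small leucine-rich proteoglycans Lum alone was (9.09%, beside 2.48% of all genes called lower).

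In the EGF, TGF-beta and BMP, and IGF lists 1 or 2 members each were called for the mean of histories. Hbegf, a ligand of the EGF receptor, fell by 0.69 (SE 0.13, adjusted p = 0.00242). It was the one called of 12 EGF family ligands and receptors (8.33%, beside 2.48% of all genes called lower). Lrig1, which dampens those receptors and was chosen after its values were seen, fell by 0.73 (SE 0.12, adjusted p = 6.17e-04), with all 5 CD49f-high values (6.62 to 7.58) below all 6 CD49f-low values (7.64 to 8.11). Bmp2 fell by 0.74 (SE 0.16, adjusted p = 0.0102) and Tgfb1 -0.56 (SE 0.15, adjusted p = 0.028). They were the 2 called of 22 TGF-beta and BMP pathway genes (9.09%, beside 2.48% of all genes called lower). Tgfb1 lost its call in 4 of the 11 fits without a single pool, and Bmp2 in 0. When each subpopulation had its own weight, limma called neither Bmp2 nor Tgfb1 (adjusted p = 0.0769 and 0.137). Igfbp2, a carrier of insulin-like growth factors, was 0.69 higher (SE 0.16, adjusted p = 0.0148). It was the one called of 12 IGF axis genes (8.33%, beside 1.05% of all genes called higher). Its difference lay in parous mice, where CD49f-high pools read 8.58 and 8.60 against 7.16 to 7.34. Lif (-0.71, SE 0.15) and Stat3 (-0.42, SE 0.06), a cytokine and the transcription factor it activates, were also chosen after their values were seen, and both were lower in all 5 CD49f-high than in all 6 CD49f-low samples.

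The stem cell-associated genes that were called were all lower in CD49f-high cells. Of 16 measured members 2 were called for the mean of histories, Lgr5 and Tspan8 (12.5%, beside 2.48% of all genes called lower). In the list 5 were above 0, 7 had an unadjusted p under 0.05, and the median was -0.079. This list, like the others, was chosen with earlier results of these data known, so its shares are descriptions. In parous mice 3 of 16 were called lower (18.8%, beside 4.39%), and the mean level of the list was 7.42 and 7.30 in CD49f-high pools against 7.71 to 7.76 in CD49f-low pools, with no overlap. In nulliparous mice it was 7.53 to 7.76 against 7.70 to 7.80, which overlap, and limma called 0 (0 at an unadjusted p under 0.05). Procr, the protein C receptor, was -0.59 (SE 0.19, adjusted p = 0.0821) for the mean and was called lower in parous mice, at -0.92 (SE 0.29, adjusted p = 0.0492). Axin2, a general target of Wnt signals, read 7.15 to 8.12 in CD49f-high and 6.96 to 7.65 in CD49f-low samples, a difference of 0.19 (SE 0.15, adjusted p = 0.519). Of 16 Wnt target genes Lgr5, which is also in the stem cell list, was the one called for the mean (6.25%, beside 2.48% of all genes called lower). In parous mice Lgr5 and Cd44 were called lower (12.5%, beside 4.39%). For the mean of histories limma called 0 of 21 Wnt ligands and secreted modulators (3 at an unadjusted p under 0.05) and 0 of 16 Notch pathway genes (2 at an unadjusted p under 0.05).

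Mitosis genes were higher in nulliparous CD49f-high cells without passing the test. All 24 measured members were above 0 in nulliparous mice, with a median difference of 1.02 beside 0.0058 over all genes, and 20 of them had an unadjusted p under 0.05 while limma's adjusted test called 0. In parous mice the median was 0.044, with 15 of 24 above 0. The mean level of the list was 5.74, 6.50 and 7.52 in nulliparous CD49f-high pools 1, 2 and 3 and 5.20, 5.49 and 6.04 in CD49f-low pools 1, 2 and 3. It was higher in CD49f-high cells for each of the 3 pool numbers, which are only possible pairs. The ranges overlapped, with CD49f-high pool 1 below CD49f-low pool 3. In the 5 parous samples it lay between 5.05 and 5.20, and 20 or 21 of the 24 genes were below the median of the whole table in each parous group. Top2a, the topoisomerase of dividing cells, read 7.05, 8.71 and 9.63 in nulliparous CD49f-high and 5.93, 6.55 and 7.50 in CD49f-low pools, and 5.17 to 5.79 in parous samples. Its nulliparous difference was 1.80 (SE 0.53, adjusted p = 0.213), and that of the proliferation antigen gene Mki67 was 1.21 (SE 0.38, adjusted p = 0.241). For the mean of histories 1 member was called (4.17%, beside 3.54% of all genes). It was Ube2c, a ubiquitin-conjugating enzyme of mitotic exit, at 0.49 (SE 0.14, adjusted p = 0.0426). That call was lost in 7 of the 11 fits without a single pool, and 9 members were called without nulliparous CD49f-high pool 1.

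DNA replication genes moved less. Of 29 measured members Cdca7 alone was called for the mean of histories (3.45%, beside 3.54% of all genes). The median was 0.19 in nulliparous and -0.16 in parous mice. Cdca7 was also the one member whose parous difference (1.55, SE 0.29, adjusted p = 0.00125) passed limma's test (3.45%, beside 7.18% of all genes). Cdca7 was thus higher in parous CD49f-high cells, where the mitosis list was at 5.20 in both pools.

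**Figure D4:**
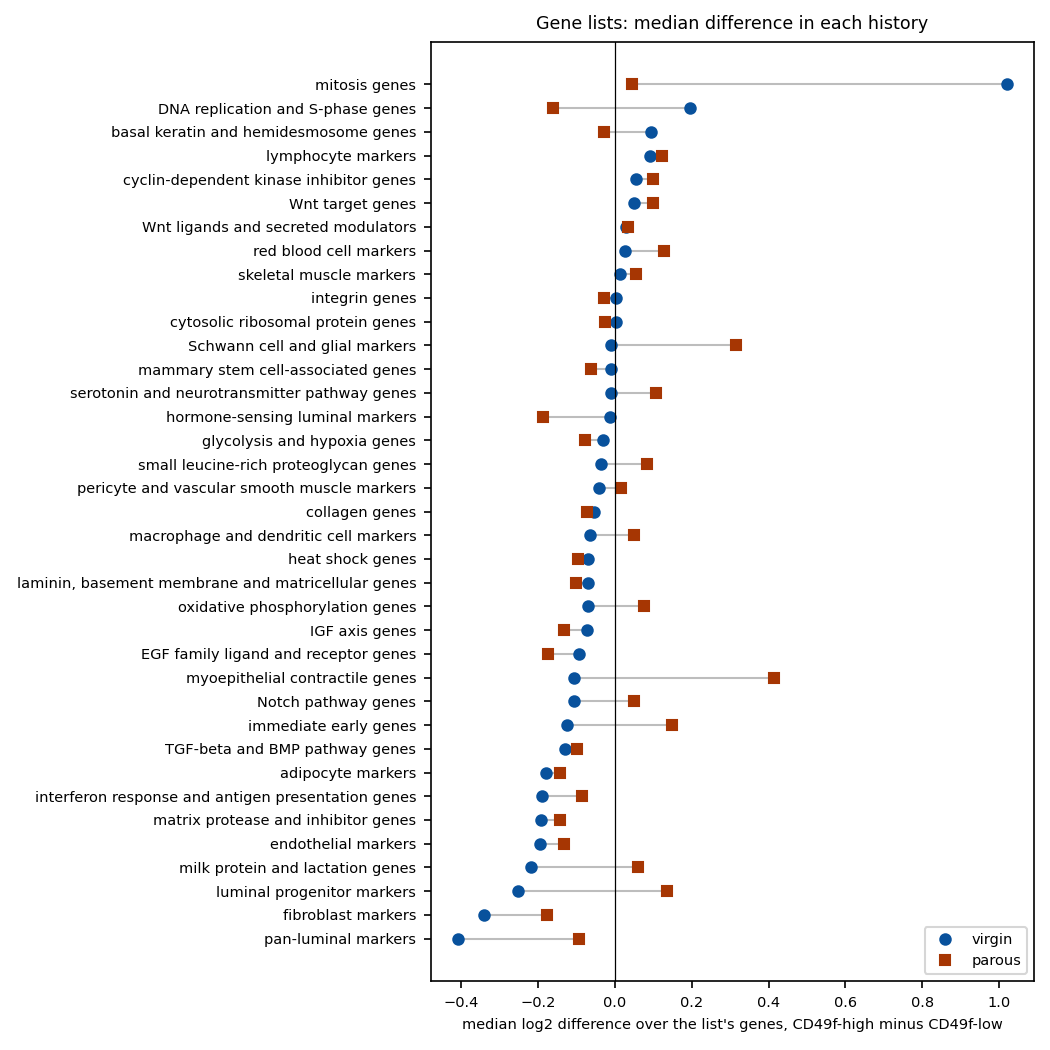
Median log2 difference between CD49f-high and CD49f-low cells over the measured genes of 37 lists (rows), in virgin (blue circles) and parous mice (brown squares). Mitosis genes stand out in virgins at 1.02 and contractile genes in parous mice at 0.42. Fibroblast and pan-luminal markers lie at the low end in virgins.

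Most early response, stress and metabolic genes were not called. Of 21 immediate early genes 1 was called for the mean of histories, Ier2 (4.76%, beside 1.05% of all genes called higher). Ier2 was 0.58 higher (SE 0.12, adjusted p = 0.0054). It read 8.54 in both parous CD49f-high pools and 6.67 to 7.36 in all 9 other basal samples. In parous mice Fos (0.82) and Dusp1 (0.57), added after their values were seen, were called higher too and Fosl1 lower. Thus 3 of 21 were called higher and 1 lower there (19.0%, beside 7.18% of all genes). Of 11 heat shock genes 1 was called higher and 1 lower in parous mice (18.2%). Of 18 glycolysis and hypoxia genes 2 were called lower in parous mice (11.1%, beside 4.39% of all genes). Bag3, a co-chaperone, fell by 0.44 (SE 0.08, adjusted p = 0.00158) and separated all 5 from all 6 samples, and Slc2a1, the glucose transporter GLUT1, fell by 0.67 (SE 0.10, adjusted p = 6.17e-04). Slc2a1 read 8.79 and 8.70 in parous CD49f-high pools and 9.41 to 10.14 in the other 9 samples. Limma called 0 of 25 oxidative phosphorylation genes (2 at an unadjusted p under 0.05) and 0 of 22 ribosomal protein genes (1 at an unadjusted p under 0.05).

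Markers of other cell types moved with several of these results, mostly toward lower levels in CD49f-high cells. Of 13 fibroblast markers 2 were called lower (Lum and Pdgfra; 15.4%, beside 2.48% of all genes), 2 were above 0, and the median was -0.25 beside 0.029 over all genes. Their mean level was 5.75 to 6.35 in nulliparous and 5.78 to 5.83 in parous CD49f-high samples, 6.37 to 6.86 and 6.07 to 6.30 in CD49f-low samples, 5.72 to 6.06 in luminal Sca1-negative and 9.70 to 10.14 in stromal cells. The CD49f-high samples were thus below the CD49f-low samples in each history, and the parous ones lay within the luminal range. In these bulk samples fewer cells of a type and less RNA per cell cannot be told apart. Pdgfra read 5.57 to 6.04 in CD49f-high, 6.15 to 7.55 in CD49f-low and 10.96 to 11.15 in stromal samples. Efemp1, fibulin 3, chosen after its values were seen, read 4.76 to 5.20, 5.40 to 6.23 and 11.43 to 11.63 in the same groups. The part of stromal RNA in the lower levels of Lum, Pdgfra, Efemp1, Lama2, Mmp3 and Adamts5, all higher in stromal than in basal cells, was not tested.

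Of 12 endothelial markers 0 had a difference above 0 for the mean of histories, and 2 were called lower (16.7%, beside 2.48% of all genes). Cdh5 (VE-cadherin) was -1.40 (SE 0.38, adjusted p = 0.0375) and Pecam1 (CD31) -0.93 (SE 0.27, adjusted p = 0.0492), and both lost their calls in 7 of the 11 fits without a single pool. The list's mean level was 5.67 to 6.50 in nulliparous and 5.38 to 5.91 in parous CD49f-high samples against 5.75 to 6.56 and 5.95 to 6.24 in CD49f-low samples, and 6.79 to 7.80 in stromal cells. The nulliparous ranges overlapped and the parous ranges did not.

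Pan-luminal marker levels were lower in nulliparous CD49f-high than in CD49f-low samples. Limma called 0 of 14 pan-luminal markers there (6 at an unadjusted p under 0.05), with a median of -0.41. Their mean level was 8.05 to 8.50 in nulliparous CD49f-high and 8.76 to 8.78 in CD49f-low samples, with no overlap, 8.46 to 8.73 against 8.64 to 8.78 in parous mice, and 10.16 to 10.32 in luminal Sca1-negative cells. Krt18 read 10.22, 9.43 and 8.82 in nulliparous CD49f-high pools and 10.04 to 10.45 in all 6 CD49f-low samples. Krt7 was the one marker of the list whose difference changed between histories, at -1.50 in nulliparous and 0.44 in parous mice (1.94, SE 0.52, adjusted p = 0.0442). The part of luminal RNA in the lower levels of Tph1, Tlcd4 and Tspan8 was not tested. Milk protein genes did not separate the fractions: 0 of 14 were called by limma for the mean of histories, with 0 at an unadjusted p under 0.05.

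**Figure D5:**
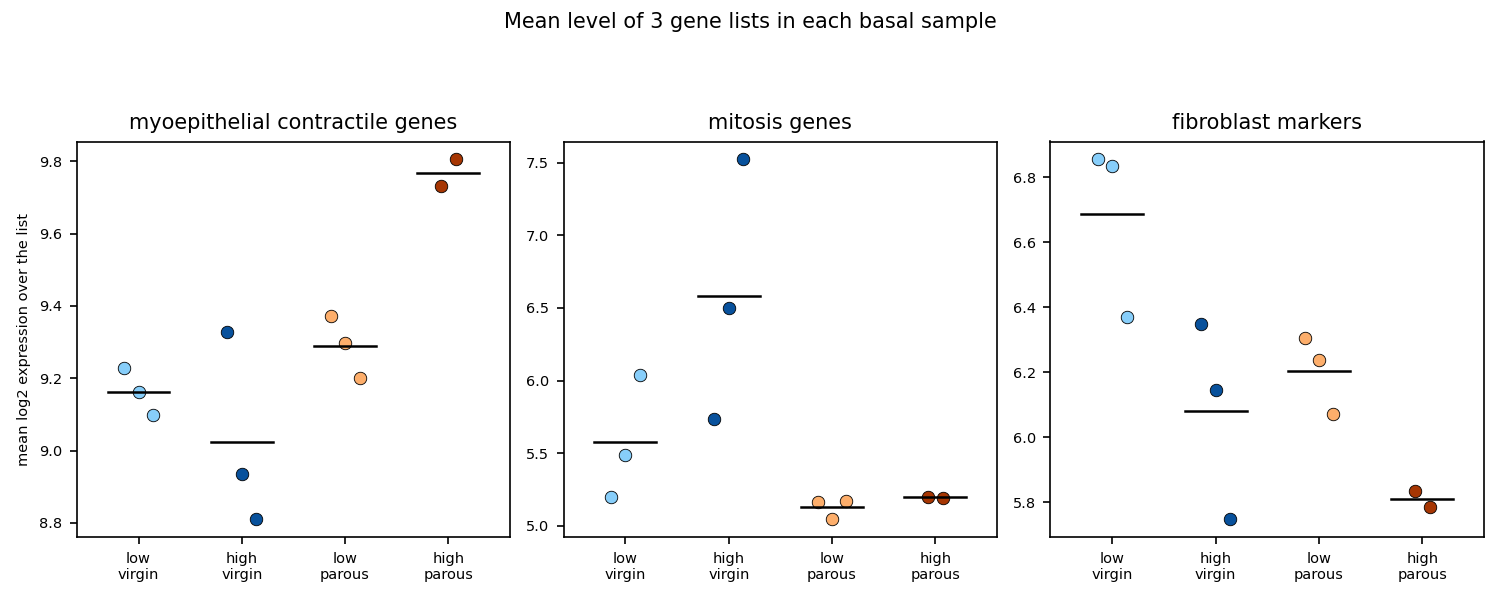
Mean log2 expression (vertical axes) over the measured genes of 3 lists in each of the 11 basal samples, by fraction and history, with bars at group means. Contractile genes are at 9.73 and 9.80 in the 2 parous CD49f-high samples and at 8.81 to 9.37 in the others, mitosis genes reach 7.52 in nulliparous CD49f-high cells, and fibroblast markers are lower in CD49f-high than in CD49f-low samples of the same history.

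Limma called 0 of 18 macrophage and dendritic cell markers (0 at an unadjusted p under 0.05) and 0 of 11 lymphocyte markers (1 at an unadjusted p under 0.05) for the mean of histories. In the parous comparison 2 of 6 Schwann cell and glial markers were called higher (33.3%, beside 2.78% of all genes), Sox10 and Cdh19. Sox10, which mammary basal cells also express, read 8.40 and 8.51 in parous CD49f-high pools against 7.58 to 8.00 in CD49f-low pools. Cdh19 read 6.77 in parous CD49f-high pool 2 and 3.05 in pool 3, so 1 of the 2 pools carried the difference.

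Beyond the named groups, the called genes differed in how strongly they were expressed. Genes below the median of the whole table (5.86) made up 45.9% of all genes tested, 45.7% of those called higher and 8.08% of those called lower in CD49f-high cells. Of the 495 genes called lower, 37 (7.47%) were at least 1 log2 unit higher in stromal than in CD49f-low basal cells, beside 3.59% of all genes. The same held for 25 (5.05%) in luminal Sca1-negative cells, beside 1.95%, and for 36 (7.27%) in luminal Sca1-positive cells, beside 3.33%. Most genes called lower were thus not 1 log2 unit or more higher in any one of those cell types. Olfactory receptor genes, 1027 of those tested and chosen as a class after the values were seen, made up 5.15% of all genes tested and 3.33% of those called higher, with 7 called higher and 0 lower. Small nucleolar RNA genes, 52 of those tested, made up 0.261% of all genes and 1.01% of those called lower, with 5 called lower and 0 higher, among them Snord16a, which differed by -3.33 (SE 0.35) in parous and -0.051 (SE 0.32) in nulliparous mice.

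The fit of the 11 basal samples alone estimated the spread from these cells only, and it called 28 genes for the mean of histories, 3 higher and 25 lower, of which 27 were also among the 705. These included Lum, Tph1, Tspan8, Fv1, Medag, Fli1, Pdgfra, Fam169a, Vcam1 and Efemp1 among the genes named above. Outside the rule, and chosen because that fit called them, Tnfaip6, a hyaluronan-binding protein, fell by 1.59 (SE 0.23, adjusted p = 0.0332), its partner in hyaluronan cross-linking Ptx3 -0.87 (SE 0.12, adjusted p = 0.0251) and Ezr, which ties the membrane to actin, -0.63 (SE 0.10, adjusted p = 0.0428). Adamts1 was called by this fit too (-0.53, SE 0.08, adjusted p = 0.0399). The 3 genes it called higher were Ublcp1 (1.11), Nicn1 (1.06) and Hmgn3 (0.97), the last a nucleosome-binding protein. Lgr5 was not called for the mean of histories by this fit, and it was called in the parous comparison.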

How the data were processed

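Expression was measured on Affymetrix arrays in 35 samples of sorted mouse mammary cells, and the 11 basal samples were compared. The authors deposited log2 values per probe set, and per the submitters' processing notes the affy package was used. How the arrays were normalized, and on which build, is not given in the sources used here. Depth has no counterpart on arrays, where the number of arrays limits the precision. Each gene was read from its single-symbol probe set with the highest mean. All 35 samples in 12 groups were fitted with limma 3.58.1 in R 4.3.3 (eBayes with a trend), with Benjamini-Hochberg adjustment over 19937 genes, and a gene was called at an adjusted p under 0.05. The script was tested on simulated data.

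Genes were named by a rule: of the called genes without overlap between the 5 and 6 values, the 12 with the largest rise and the 12 with the largest fall, up to 4 called members of each list in each direction, and a panel of 16 genes. The members and lists were chosen with earlier results of these data known. Replicates are pools of mice numbered in the labels. Deviations of same-numbered pools from their group means correlated at 0.34, 0.14 and 0.26 in nulliparous mice and at 0.076 and 0.028 in parous mice. Pools of different numbers were not compared in this way. The nulliparous numbers were taken as possible pairs. The reported fit had no term for the pool, and pool blocks were run as alternatives. The alternatives were other spread models and weights, normalization, filters, pool blocks and leaving out samples.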

Additional observations from a re-analysis of the deposited data

Results flagged for a closer look

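The difference between fractions changed with reproductive history in 26 of the 97 genes followed, by limma's test of the parous minus the nulliparous difference (log2 units). Over all genes that test called 453 of 19937 (2.27%). Part of the genes followed were chosen after their values were seen, so the 26 do not measure how often such a change occurs. In these 26 genes the sign of the change varied. The change was positive for the smooth muscle genes Actg2 (1.48), Kcnmb1 (2.74), Ppp1r14a (2.38) and Synm (1.45). It was also positive for the matrix and adhesion genes Eln (1.26), Fn1 (1.35), Itga1 (1.49) and Lama1 (1.10), and for Ier2 (1.45), Igfbp2 (1.26), Krt7 (1.94), Lcat (1.72) and Prmt9 (1.70). It was negative for Lgr5 (-1.50), Adamts5 (-1.77), Plat (-1.33), Cd44 (-1.45), Vcam1 (-1.39) and Medag (-2.74). The remaining negative values were those of Bag3 (-0.64), Fosl1 (-1.77), Gch1 (-2.36), Il19 (-1.34), Lrig1 (-0.88), Rpl30 (-1.08) and Slc2a1 (-1.20). With the basal samples fitted alone, Medag and Ppp1r14a were still called among these genes.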

How the results depend on the processing

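Counts are of genes called by limma for the mean of histories, nulliparous mice, parous mice and the difference between histories, in that order. They were 705, 23, 1431 and 453 as reported, 268, 15, 497 and 110 when each array had its own weight, 138, 1, 516 and 71 when each subpopulation had one, and 28, 0 (1139 at an unadjusted p under 0.05), 159 and 17 with the basal samples alone. The pool as a random block gave 955, 51, 1663 and 686. The pool as a fixed replicate block in 5 pairs called 0 in each, with 2372 at an unadjusted p under 0.05 for the mean and 1235 in nulliparous mice. The basal samples fitted alone and weighted equally, with no term for history, gave 0 for the mean (1716 at an unadjusted p under 0.05). Without nulliparous pool 1 the nulliparous and between-history counts were 94 and 396, and without pool 3 the mean, nulliparous and between-history counts were 357, 6 and 615. Leaving out single pools gave 391 to 976, 0 to 189, 855 to 1557 and 185 to 865. Quantile normalization moved the share called higher from 38.8% to 52.2% in parous mice and from 43.5% to 57.4% between histories. Of 97 named genes 58 were called, 40 kept the call in every fit without a single pool, 0 kept it under every alternative, and 0 reversed. The causes were not tested. No depth is known for arrays.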
